A study of Mus musculus with 4 samples.

Results

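The acrosome genes described here are Acrv1, Acr, Acrbp, Spaca1, Spaca4, Spaca7, Zpbp, Zpbp2, Dpy19l2 and Agfg1, chosen by name, and every transcript of theirs in the authors' deposited table was taken. That gave 21 of 11304 listed transcripts, from 10 of 7453 genes. Whole testis RNA was sequenced at postnatal day 56 from C57BL/6 mice, wild type (WT, 2 libraries) or labelled Ppp2ca-cKO with the genotype Ppp2ca-/- (2 libraries). The PPP2CA protein is the catalytic part of the phosphatase PP2A. What drives the deletion, and in which cells, is not given in the sources used. Each sample was a left testis, and the labels do not say how animals were assigned, so the p-values reflect only how these 4 samples vary.

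The acrosome is a secretory vesicle that grows from the Golgi apparatus over the nucleus of the round spermatid and later covers the front of the sperm head. It stores enzymes and binding proteins in a dense matrix, and its contents are released by exocytosis when the sperm meets the egg coat. Its formation begins with the fusion of small proacrosomal vesicles, followed by attachment to the nuclear envelope and by filling of the matrix. Loss of several genes of this process in mice gives round-headed sperm without a normal acrosome.

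The table listed only transcripts that the authors had called different, each changed by 1 or more on the log2 scale in either direction, so that a change of that size was a condition for entry. They had tested 64840 transcripts, of which 11.7% were listed as lower and 5.76% as higher in the cKO. Library totals ran from 17612049 to 19834137 reads. Reads on listed transcripts made up 43.3% and 44.5% of the WT libraries and 24.4% and 25.5% of the cKO libraries. No transcript of Ppp2ca itself was listed (0 of 11304), so the genotypes rest on the labels alone. In whole testis, fewer spermatids and less RNA per spermatid cannot be told apart.

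The genes lie on 8 chromosomes, and the table's gene coordinates were those of GRCm38. Spaca7 is at chromosome 8, 12573029 to 12600744, on the plus strand, and Acrv1 at chromosome 9, 36693220 to 36698843, also plus. Spaca1 is at chromosome 4, 34024874 to 34050191, on the minus strand, and Spaca4 at chromosome 7, 45725107 to 45725813, also minus. Promoter sequence was available for 9 of the 10 genes. The 250 bases before the annotated start are printed 5′ to 3′ on the gene's strand (RefSeq, GRCm38.p6) for Spaca7 (chr8:12572786-12573035), Spaca4 (chr7:45725817-45726066), Acrv1 (chr9:36692970-36693219) and Spaca1 (chr4:34050066-34050315), the genes with the largest falls, and for Acrbp (chr6:125049677-125049926), which fell by an intermediate amount. Capitals mark TGACG, a half-site of the cAMP response element bound by the spermatid factor CREM, and GTTGCC, part of the X-box bound by RFX factors, each on either strand.
Spaca7: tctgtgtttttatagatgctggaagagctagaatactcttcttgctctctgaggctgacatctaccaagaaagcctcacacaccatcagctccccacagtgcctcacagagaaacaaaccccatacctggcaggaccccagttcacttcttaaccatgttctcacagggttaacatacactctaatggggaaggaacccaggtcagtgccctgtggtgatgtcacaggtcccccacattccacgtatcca
Spaca4: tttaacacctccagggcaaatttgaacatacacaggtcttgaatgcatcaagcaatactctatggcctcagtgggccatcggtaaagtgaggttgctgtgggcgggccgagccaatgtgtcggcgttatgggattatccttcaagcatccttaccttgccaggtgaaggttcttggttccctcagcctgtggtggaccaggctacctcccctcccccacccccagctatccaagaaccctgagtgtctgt
Acrv1: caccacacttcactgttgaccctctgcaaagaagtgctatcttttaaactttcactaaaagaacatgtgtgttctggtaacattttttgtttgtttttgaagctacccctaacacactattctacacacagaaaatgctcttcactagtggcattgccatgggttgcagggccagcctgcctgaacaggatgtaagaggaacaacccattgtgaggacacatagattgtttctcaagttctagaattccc
Spaca1: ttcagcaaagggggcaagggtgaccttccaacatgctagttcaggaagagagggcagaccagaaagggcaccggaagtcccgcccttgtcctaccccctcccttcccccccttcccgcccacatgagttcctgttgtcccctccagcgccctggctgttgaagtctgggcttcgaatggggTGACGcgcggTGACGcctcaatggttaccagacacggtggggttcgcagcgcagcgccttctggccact
Acrbp: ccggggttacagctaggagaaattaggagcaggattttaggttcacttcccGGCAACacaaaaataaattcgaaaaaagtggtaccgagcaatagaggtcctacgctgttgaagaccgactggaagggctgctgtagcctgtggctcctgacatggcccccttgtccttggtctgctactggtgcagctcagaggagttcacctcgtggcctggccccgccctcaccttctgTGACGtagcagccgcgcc

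The motifs were chosen after the sequences had been seen. TGACG was found in 3 of 9 promoters (Acrbp, Spaca1 and Zpbp2), against 17.9% of 27025 promoters of the same length. Spaca1 carried it at 69 and at 59 bases before the RefSeq start, and Acrbp at 18 bases. The gene coordinates of the authors place the starts of Spaca1 (34050191) and Acrbp (125049689) further upstream. By those coordinates the marked sites of both genes lie inside the gene, and which start is used in testis was not examined. The longer TGACGT, which contains TGACG, was found in 1 of 9 promoters, that of Acrbp, against 6.56% of all, and the full palindrome TGACGTCA in 0 of 9, against 1.62%. GTTGCC was also found in Acrbp alone, against 10.5% of all. The promoters of Spaca7, Spaca4, Acrv1, Zpbp, Agfg1 and Dpy19l2 held neither TGACG nor GTTGCC in this window. These genes include those with the largest and those with the smallest falls. Whether the motifs go with the size of the fall was not tested. The share of G and C ran from 42% for Acrv1 to 64.8% for Agfg1, and it was 49.6% for Spaca7, which fell most, and 54.4% for Dpy19l2, which fell least.

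Transcripts of all 10 genes were lower in the cKO than in the WT, and in each of the 21 transcripts both cKO libraries lay below both WT libraries. That separation held for 66.9% of all listed transcripts (7566, where 7568 were listed as lower). It therefore went with being listed as lower and is no trait of these genes. By edgeR's quasi-likelihood test, with Benjamini-Hochberg adjustment over the 64840 transcripts and a threshold of 0.05, 13 of 21 transcripts fell, against 41.3% of 10716 listed transcripts tested. None rose, against 10.4% of those tested, and all 21 had an unadjusted p under 0.05. All 21 had been listed as lower from these same 4 libraries. Their direction and a low p were therefore close to conditions for entry and are no separate support. Taking for each gene its lead transcript, the one with the highest mean normalized count, 9 of 10 fell, against 39.8% of 7114 lead transcripts. The shares also count transcripts above 0, which cannot be called lower. Of the 7114 leads, 4545 lay below 0 and 2829 were called lower, so the counts are not read as an excess. Normalized counts are counts divided by the authors' size factors, and log2 fold changes are cKO over WT with the standard error of the fit. The median log2 fold change of the 10 lead transcripts was -1.84, and that of all tested lead transcripts was -1.44, or -2.36 over those below 0. Without either WT library edgeR called 0 of the 21, with 15 at an unadjusted p under 0.05 in each case. Of the 21, DESeq2 called 16 lower (54.2% of listed transcripts), limma-voom 11 (39.9%), edgeR with a replicate block 13 (36.5%), glmTreat against a fold of 2 called 4 (19.4%), and upper quartile scaling gave 4 (18.6%). With no count filter 11 were called lower (36.2%), with the filter of 1 CPM 11 (40.1%), and by limma on log2(FPKM + 1) or log2(FPKM + 0.1) 7 (27.7%) and 4 (25.3%). The share over all listed transcripts was not computed for the fits without a WT library, so the counts there have no background. By the means of the lead transcripts, the falls ran from 2.09-fold for Dpy19l2 to 17.5-fold for Spaca7.

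**Figure D1:**
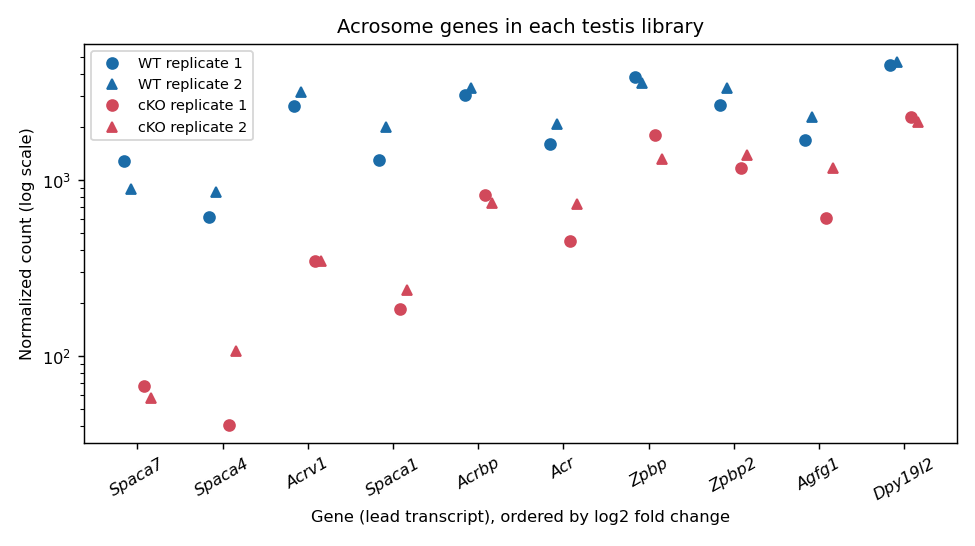
Normalized count (log axis) of the lead transcript of each gene in the 4 libraries, blue for WT and red for cKO, with circles for replicate 1 and triangles for replicate 2. Spaca7 fell from 1289 and 890.1 to 67.1 and 57.6, and Dpy19l2 from 4533 and 4683 to 2269 and 2137, and in no gene do the genotypes overlap.

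Of the genes that act in forming the acrosome, Spaca1 fell far and Dpy19l2 by little. SPACA1 is a membrane protein of the acrosome whose loss in mice gives round-headed sperm. Its lead transcript stood at 1293 and 1995 normalized counts in the WT, against 183.4 and 236.0 in the cKO. Both cKO libraries were far below the lower WT library, and the log2 fold change was -2.97 ± 0.34 SE (adjusted p = 0.0179). A shorter Spaca1 transcript stood at 491.7 and 573.9 in the WT, against 80.8 and 138.4 in the cKO (-2.28 ± 0.38, adjusted p = 0.0300).

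DPY19L2, a protein of the inner nuclear membrane, holds the acrosome to the nucleus. Its transcript stood at 4533 and 4683 normalized counts in the WT, against 2269 and 2137 in the cKO. The libraries of a genotype lay close together (4608 ± 106 and 2203 ± 93.4, SD, n = 2), and the transcript fell by 1.06 ± 0.22 on the log2 scale (adjusted p = 0.0448). Cypt4, which overlaps Dpy19l2 on the other strand, was itself lower (log2 fold change -3.15). Overlaps here are between whole genes, and whether exons overlap was not examined. Strandedness is not given, so reads from any shared exon bases cannot be told apart.

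Agfg1, also known as Hrb, encodes a protein needed for the fusion of proacrosomal vesicles. Of its 8 annotated transcripts 1 was listed. It stood at 1678 and 2289 normalized counts in the WT, against 606.7 and 1172 in the cKO. The cKO libraries differed 1.93-fold from each other, and the log2 fold change of -1.16 ± 0.39 did not pass (adjusted p = 0.171). Without cKO replicate 2 it was -1.71, and without cKO replicate 1 it was -0.76.

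Among the genes of the matrix, the lead transcripts of the proacrosin system fell 3.13-fold (Acr) and 4.11-fold (Acrbp). Acr encodes acrosin, the serine protease stored as proacrosin, and Acrbp the protein that binds proacrosin and keeps it inactive. The lead Acr transcript stood at 1599 and 2086 normalized counts in the WT, against 447.6 and 729.5 in the cKO, a log2 fold change of -1.65 ± 0.34 (adjusted p = 0.0448). Of the 4 listed Acr transcripts only this lead passed, and its call was lost with limma-voom (adjusted p = 0.0562) and with library total scaling (adjusted p = 0.0862). A transcript annotated for nonsense-mediated decay was at -1.74 ± 0.43 and did not pass (adjusted p = 0.0741). It was at -2.33 without cKO replicate 1 and at -1.32 without cKO replicate 2. The lowest 2 of the gene, with WT means of 101.8 and 100.8, were at -1.25 and -1.49.

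The lead Acrbp transcript stood at 3038 and 3345 normalized counts in the WT, against 819.2 and 735.1 in the cKO. Both cKO libraries were far below both WT libraries (log2 fold change -2.04 ± 0.23, adjusted p = 0.0179). A second coding transcript went from 1573 and 1793 to 525.9 and 675.1 (-1.49 ± 0.26, adjusted p = 0.0325). The other 2 listed Acrbp transcripts, at -1.37 ± 0.32 and -2.34 ± 0.64, did not pass (adjusted p = 0.0624 and 0.0965). They were at -1.497 and -3.31 without cKO replicate 2, and at -1.26 and -1.76 without cKO replicate 1. An antisense gene overlaps Acrbp.

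Acrv1, which encodes the matrix protein SP-10, fell much further. Its lead transcript stood at 2619 and 3181 normalized counts in the WT, against 345.8 and 344.0 in the cKO, an 8.41-fold fall (log2 fold change -3.07 ± 0.25, adjusted p = 0.0154). The cKO libraries were nearly equal. A transcript with a retained intron went with it, from 288.6 and 460.3 to 35.5 and 67.2 (-2.86 ± 0.48, adjusted p = 0.0301).

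The related zona pellucida binding proteins of the matrix, Zpbp and Zpbp2, fell by about as much as each other. Zpbp stood at 3829 and 3543 normalized counts in the WT, against 1808 and 1313 in the cKO (log2 fold change -1.24 ± 0.26, adjusted p = 0.0482). Its call was lost without cKO replicate 2 (-1.03, adjusted p = 0.0524), and also with no count filter (adjusted p = 0.0501) or with a filter of 1 CPM in 2 samples (adjusted p = 0.0521). The lead Zpbp2 transcript stood at 2686 and 3331 in the WT, against 1176 and 1385 in the cKO (-1.23 ± 0.25, adjusted p = 0.0440). Of the other 2 listed Zpbp2 transcripts, that at -1.17 ± 0.25 lay just inside the threshold (adjusted p = 0.04998) and was lost without cKO replicate 1 or 2 (adjusted p = 0.0526 and 0.0915), and that at -1.10 ± 0.28 did not pass (adjusted p = 0.0800). Spata48, which overlaps Zpbp on the other strand, was itself lower (-3.53).

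Spaca7 and Spaca4 showed the deepest falls. SPACA7 is an acrosomal protein released during exocytosis. Its lead transcript stood at 1289 and 890.1 normalized counts in the WT, against 67.1 and 57.6 in the cKO (log2 fold change -4.13 ± 0.34, adjusted p = 0.0154). A rarer Spaca7 transcript, at 53.8 and 39.8 in the WT, had 0 counts in cKO replicate 1 and 6.40 normalized counts in cKO replicate 2, and did not pass (adjusted p = 0.102). Its log2 fold change was -2.85 without cKO replicate 1 and -8.51 without cKO replicate 2, where it rests on the library at 0.

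SPACA4 is a lipid-anchored acrosomal membrane protein with a part in binding to the egg coat. Its transcript stood at 615.2 and 850.3 normalized counts in the WT, against 40.4 and 106.4 in the cKO (log2 fold change -3.32 ± 0.54, adjusted p = 0.0286). The cKO libraries differed 2.63-fold, the widest gap among the lead transcripts. Fam83e overlaps Spaca4 on the other strand, and its more abundant listed transcript was lower too, from 1030 and 1617 to 53.3 and 144.0 (-3.74).

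**Figure D2:**
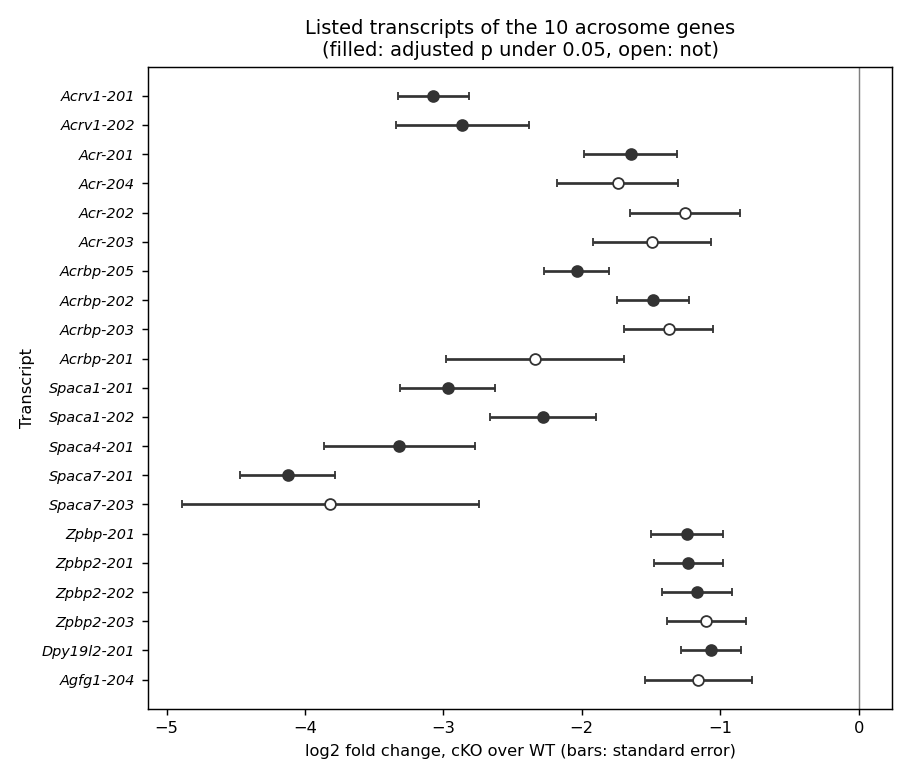
Log2 fold change, cKO over WT, of the 21 listed transcripts with bars for the standard error, filled where the adjusted p was under 0.05. All points lie below 0, from -4.13 for the Spaca7 lead to -1.06 for Dpy19l2, and the 8 open points had WT means between 46.8 and 1983 normalized counts.

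Transcripts of the same gene were not found to move apart. In edgeR's diffSpliceDGE test, which compares each transcript with the overall change of its gene, 0 of 17 transcripts of the 6 genes with several listed transcripts passed, against 16.3% of 5761 transcripts tested. Their departures ran from -0.59 to 0.49 on the log2 scale, the lowest adjusted p was 0.768, and 0 had an unadjusted p under 0.05. Whether smaller departures exist cannot be seen at this spread. Listed transcripts were 21 of the 38 annotated for these genes, and the others were not analysed here. The share of the listed Acrbp FPKM (reads scaled by transcript length and library total) held by its lead transcript was 43.2% and 50.4% in the WT, against 40.8% and 32.8% in the cKO. For Zpbp2 it was 65.8% and 69.9% in the WT, against 64.1% and 69.1% in the cKO.

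The genes did not fall by equal amounts. When the 10 lead transcripts were taken as a group and each was tested against the overall change of the group with diffSpliceDGE, an analysis added after the data had been seen, 4 fell further than the group. Spaca7 departed by -2.50 on the log2 scale (adjusted p = 0.00011), Spaca4 by -1.69 (adjusted p = 0.00398), Acrv1 by -1.44 (adjusted p = 0.00551) and Spaca1 by -1.34 (adjusted p = 0.0127). Dpy19l2, Agfg1, Zpbp2 and Zpbp departed by 0.56, 0.47, 0.40 and 0.39 and did not pass, with adjusted p of at least 0.512. Acrbp at -0.41 and Acr at -0.02 did not pass either. The overall change weights abundant transcripts more. The test also pools the spread of the 10 genes into 1 value and treats them as parts of 1 gene. Its adjusted p-values can therefore be smaller than a gene's own spread would give, as for Spaca4, whose cKO libraries lay far apart. The group was formed for these genes only, so the count of 4 has no share over all transcripts beside it. Without WT replicate 1 or WT replicate 2 only Spaca7 passed (adjusted p = 0.0295 and 0.00735), and without cKO replicate 1 the call for Spaca4 was lost (adjusted p = 0.0718).

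The size of the common change depended on how the libraries were scaled, whereas a departure from the group is by construction nearly free of the scaling. Relative to the authors' size factors, scaling by TMM, RLE or upper quartile shifted the log2 fold changes of the tested transcripts by a median of 1.49, 1.54 and 1.08, library totals by 0.53, and equal Sertoli counts by -1.34. Under TMM, Spaca7 was at -2.64, Spaca4 at -1.84, Acrv1 at -1.57 and Spaca1 at -1.47, while Dpy19l2, Agfg1, Zpbp and Zpbp2 turned to 0.43, 0.33, 0.27 and 0.26. There 3 of the 21 transcripts passed, the leads of Acrv1, Spaca7 and Spaca1, each as lower, against 12.5% of listed transcripts. With equal Sertoli counts all 21 transcripts fell, against 69.1% of listed transcripts. TMM and RLE assume that most transcripts in the table did not change, although all were called, and equal Sertoli counts set the Sertoli list to about 0 by construction. With library totals, which do neither, all 10 leads stayed below 0 and 7 of the 21 transcripts passed, against 30.4% of listed transcripts, a share near the background. The 7 belonged to Acrv1, Spaca7, Acrbp, Spaca1 and Spaca4.

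**Figure D3:**
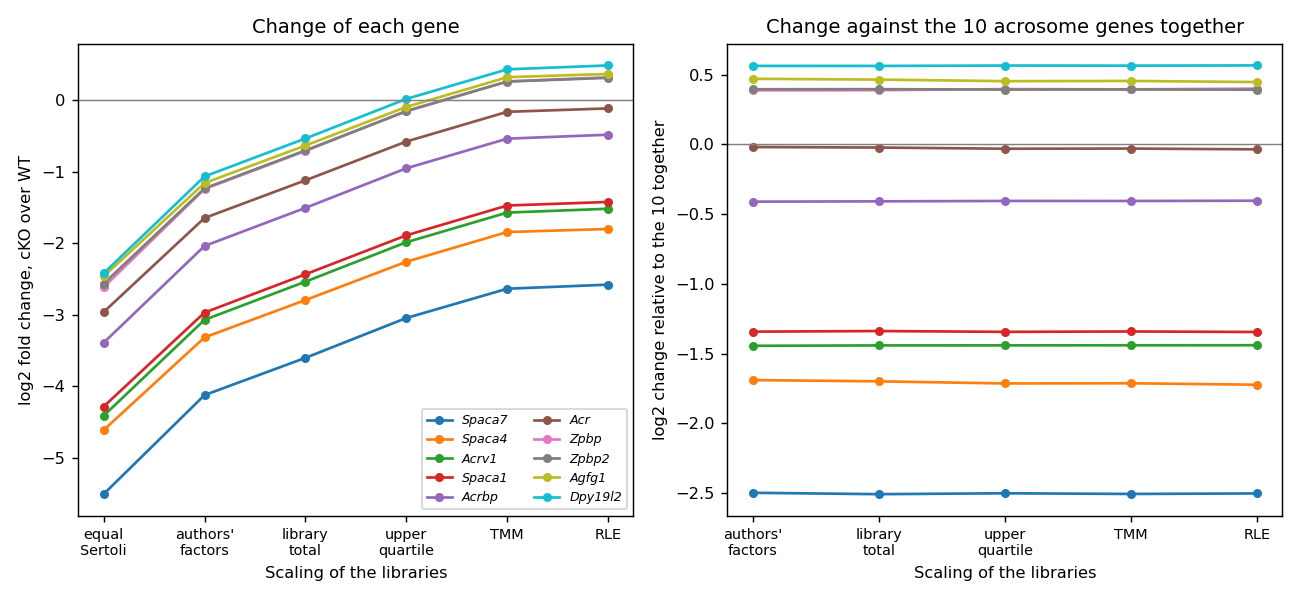
Left, log2 fold change (cKO over WT) of each lead transcript under 6 scalings of the libraries; right, its departure from the 10 together on the log2 scale under 5 of them. The lines on the left rise in parallel and Dpy19l2 crosses from -1.06 to 0.43 between the authors' factors and TMM, while the departures on the right, such as -2.50 for Spaca7, are by construction nearly the same under every scaling.

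The order of the lead transcripts by level changed between the genotypes. It is not an order of whole genes. In the WT the lead held 96.9% and 96.0% of the listed Acrv1 FPKM, but 43.2% and 50.4% of the listed Acrbp FPKM. Per length, as FPKM of the lead transcript, Acrv1 was the highest in the WT (147.5 ± 15.4, SD, n = 2), followed by Acrbp (111.9 ± 3.31) and Zpbp2 (109.0 ± 12.4), the last pair not differing beyond their spread. Spaca7 (90.7 ± 25.2), Spaca1 (75.2 ± 20.2), Spaca4 (67.6 ± 14.2), Acr (64.2 ± 9.55) and Dpy19l2 (64.1 ± 1.5) followed, with neighbours closer than their spread, and Agfg1 (41.5 ± 7.25) and Zpbp (41.1 ± 4.2) were the lowest. In the cKO the order began with Zpbp2 (67.4 ± 6.48 FPKM), Dpy19l2 (44.3 ± 3.17) and Acrbp (39.6 ± 3.81). Another Acrbp transcript stood at 43.2 ± 5.11 FPKM there, above the lead though within their spread. Acrv1 came after Acr and Agfg1 at 25.5 ± 0.417, close to Zpbp at 25.2 ± 6.39. Spaca1 (14.0 ± 2.30), Spaca4 (9.91 ± 6.34) and Spaca7 (7.545 ± 0.785) were the lowest. FPKM is relative to each library's total reads, and on that scale Spaca7 was 12-fold and Dpy19l2 1.45-fold lower in the cKO.

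Other acrosome genes fell as well. In a list of 24 further genes of acrosome biogenesis, 18 were listed and 17 tested, of which 14 fell and 0 rose by edgeR. All 17 had an unadjusted p under 0.05, and their median log2 fold change was -3.13. Gopc, Csnk2a2, Vps54, Smap2, Rab2a and Ssfa2 were not listed. Each tested gene had met the condition for entry, so the p-values and medians of this and the following lists describe listed genes only. Over all tested lead transcripts, 39.8% were called lower and 11.1% higher, and these shares are the background of the list counts that follow too. Both shares are over leads above and below 0 together. They hold for the fit with all 4 libraries and were not computed with a library left out. The smallest p-values belonged to Fam209 (2276 and 2369 to 273.1 and 256.0 normalized counts, -3.13 ± 0.24, adjusted p = 0.0154), Cylc2, a protein of the perinuclear theca (8774 and 5300 to 342.6 and 311.2, -4.43 ± 0.35, adjusted p = 0.0154), and Pfn3, a testis profilin (232.4 and 376.0 to 20.2 and 22.4, -3.83 ± 0.43, adjusted p = 0.0173). In a list of 28 further acrosomal proteins, 27 were listed and tested, of which 24 fell and 0 rose (edgeR, with 27 at an unadjusted p under 0.05; median -3.21). Its smallest p-values belonged to Txndc8, a spermatid thioredoxin (879.4 and 983.8 to 68.7 and 91.2, -3.54 ± 0.31, adjusted p = 0.0154), the hyaluronidase Hyal5 (2087 and 1805 to 272.3 and 228.8, -2.96 ± 0.26, adjusted p = 0.0154) and the zona pellucida receptor Zp3r (1784 and 2242 to 151.1 and 228.8, -3.41 ± 0.33, adjusted p = 0.0155). Without either WT library edgeR called 0 in each list, with 16 to 27 at an unadjusted p under 0.05.

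Markers of the cells that carry the acrosome were lower together with these genes. Of 13 round spermatid markers 12 fell (median log2 fold change -3.16), and of 16 elongating spermatid markers 15 fell (-4.36). Of 19 spermatocyte markers 13 were tested and 6 fell (-1.52), while Sycp1, Sycp3, Ovol2, Mybl1, Hormad1 and Spata22 were not listed. The summed normalized counts of the round spermatid markers were 37339 and 46096 in the WT, against 4549 and 6498 in the cKO, and those of the elongating spermatid markers 271977 and 304626 in the WT, against 5997 and 22100 in the cKO. The 10 acrosome genes summed to 23178 and 26192 in the WT, against 7764 and 8217 in the cKO, so that their sum differed 1.06-fold between the cKO libraries, against 1.43-fold for the round and 3.69-fold for the elongating spermatid markers. Behind that sum the single leads went both ways, with cKO replicate 2 over replicate 1 from 0.726 to 2.63 and 5 of 10 higher in replicate 2.

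Markers of other cells went the other way or both ways. Of 19 Sertoli markers 15 were tested and 6 rose (median 1.34), with sums of 18081 and 19462 in the WT, against 45625 and 46075 in the cKO. Of 16 Leydig markers 11 were tested and 8 rose (1.71; sums of 9509 and 9084 against 32646 and 37671), and of 16 leukocyte markers 9 were tested and 4 rose (1.86; 869.6 and 919.4 against 3233 and 3224). Of 20 spermatogonial markers 11 were tested, of which Ccnd2 rose and Dmrtb1 fell (1.39). Their sums were 9265 and 12860 in the WT, against 7320 and 8276 in the cKO. Dmrtb1 makes up most of these sums, and without it they were 1575 and 1971 against 4586 and 4701, with all 10 other tested markers above 0, of which only Ccnd2 passed. The only marker at 0 in a library was the listed transcript of the Leydig gene Hsd17b3, at 163 and 3.51 normalized counts in the WT, against 0 in both cKO libraries; the defining Leydig markers Star, Insl3 and Hsd3b1 were not listed. The part of these markers in the falls of the acrosome genes was not tested.

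**Figure D4:**
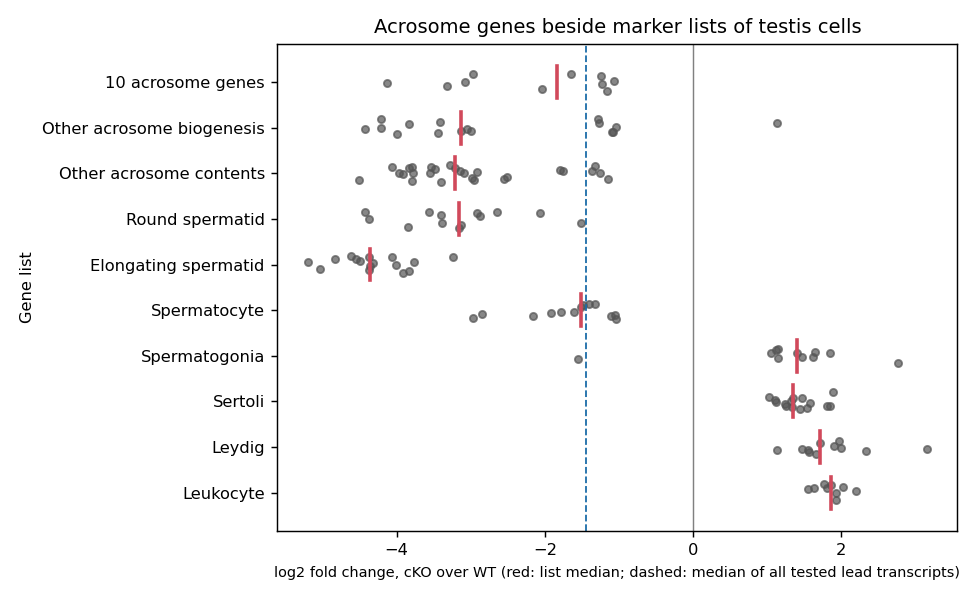
Log2 fold change (cKO over WT) of the tested lead transcripts of the 10 acrosome genes, of other acrosome genes and of marker lists of testis cells, 1 point per gene, with the list median in red and the median of all tested lead transcripts (-1.44) dashed; Pick1, at 0 in both cKO libraries, is left off. The 10 genes spread from -4.13 to -1.06, across the medians of the round spermatid (-3.16) and spermatocyte (-1.52) lists.

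The genes whose profile over the 4 libraries lay nearest to the mean profile of the 10 lead transcripts, by Euclidean distance of centred log2 normalized counts among 5080 lead transcripts, were Bzw1, Tent5c, Dnajb3, Slain2 and Zfp759, with distances of 0.066, 0.070, 0.071, 0.080 and 0.094. Their log2 fold changes lay between -2.26 and -2.15. Bzw1 stood at 2334 and 2684 normalized counts in the WT, against 468.6 and 580.7 in the cKO.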

How the data were processed

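Per the file headers, each Ensembl transcript has an expected count and an FPKM value for every library, with the authors' mean normalized count (a signal over the 4 libraries), log2 fold change, p-value, adjusted p-value, and a standard error and test statistic (each a score). The 4 deposited sample files hold the same FPKM. Per the submitters' processing notes the build is mm9, but the table's gene coordinates were identical to GRCm38 for 98.5% of transcripts whose gene is in GENCODE vM21. The aligner and counter are not given in the sources used.

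The authors' size factors (0.818, 0.854, 1.24 and 1.25) were recovered from their mean normalized counts to within 4.9e-10, the number tested from the ratio of p to adjusted p, and library totals from counts, length and FPKM (median misfit of 0.0072% to 0.0129%). Expected counts were rounded and tested with edgeR 4.0.16 in R 4.3.3 (glmQLFit, glmQLFTest, genotype only) after filterByExpr (minimum count 10), keeping 10716 transcripts and all 21 described here. The adjustment gave unlisted transcripts a p of 1. The spread (common biological coefficient of variation 32.5%) was estimated on called transcripts. The code was tested on simulated data. Libraries of a genotype were not duplicates (chi-square per degree of freedom 33.2 and 29.5).

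Alternatives were TMM, RLE, upper quartile and library total scaling, equal Sertoli counts (added after seeing the data), 2 other filters, DESeq2 1.42.0, limma-voom and limma 3.58.1 on log2(FPKM + 1) or log2(FPKM + 0.1), glmTreat against a fold of 2, transcripts of a gene summed, a replicate block and each library left out. The genes and lists were chosen with earlier results of these data known. Named besides the 10 genes are the 3 called genes of each further acrosome list with the smallest p, called genes of the rarer direction, and the 5 nearest profiles; overlapping genes and others were named after their values were seen. Without molecular identifiers, reads cannot be counted as independent molecules.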

Additional observations from a re-analysis of the deposited data

How the results depend on the processing

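With DESeq2, limma-voom, no count filter and the filter of 1 CPM, 16, 11, 11 and 11 of the 21 transcripts fell and 0 reversed. The shares of all listed transcripts were 54.2%, 39.9%, 36.2% and 40.1%. Fewer fell, with the share of all listed transcripts beside each count, under TMM (3, 12.5%), RLE (3, 12.5%), upper quartile (4, 18.6%) and library total scaling (7, 30.4%), by glmTreat (4, 19.4%), and by limma on log2(FPKM + 1) (7, 27.7%) or log2(FPKM + 0.1) (4, 25.3%), and 21 fell with equal Sertoli counts (69.1%). Of the lead transcripts 3, 3, 4, 5, 4, 5 and 4 fell in the first 7 of these settings, in that order. Shares over all lead transcripts were not computed for these settings, so the counts of leads and of list genes have none beside them. The lead median was -0.35, -0.30, -0.76 and -1.31 under the 4 scalings, -1.30 and -1.32 by limma on FPKM and -3.18 with equal Sertoli counts. Of the acrosome biogenesis list, 9 genes fell under TMM, RLE, upper quartile and glmTreat, and 2, 2, 1 and 1 rose under TMM, RLE, upper quartile and log2(FPKM + 1) (Gba2, joined by Rab6a under TMM and RLE).

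Directions turned in 10 transcripts under TMM and RLE. These were Dpy19l2 (0.43 and 0.49), Agfg1 (0.33 and 0.37), Zpbp (0.27 and 0.32), Zpbp2 (0.26, 0.33 and 0.39, then 0.32, 0.39 and 0.45), Acr (0.23 and 0.012, then 0.28 and 0.065) and Acrbp (0.0044 and 0.11, then 0.055 and 0.16). Dpy19l2 also turned under upper quartile scaling (0.021). The scaling itself moves every value, by construction. Against the 10 together with 1 library left out, Acr ran from -0.372 to 0.25, above 0 without WT replicate 2 (0.095) or cKO replicate 1, and Agfg1 from -0.040 (without cKO replicate 2) to 0.828.

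Leaving out 1 library at a time gave 0 to 16 transcripts and 0 to 9 lead transcripts that fell, a lead median of -2.001 to -1.70, 0 to 15 biogenesis genes that fell and 0 to 1 that rose (Rab6a), 0 to 26 content genes that fell, 0 to 0 transcripts apart from their gene, and 1 to 4 genes below the 10 together. The lowest counts that fell came without either WT library, which leaves 1 WT sample assumed to vary like the cKO. Likewise, a fit without a cKO library leaves 1 cKO sample, and its spread comes from the WT alone. A pass there is no sign of a sturdier result. With a library left out, the share over all listed transcripts was not computed, so these counts cannot be read as a trait of these genes.

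The labels do not say that equal replicate numbers share a litter or day, and their deviations correlated at 0.123. With a replicate block in edgeR 13 transcripts fell, against 36.5% of listed transcripts, and 10 leads fell (median -1.86). Agfg1 passed (adjusted p = 0.0495), a Zpbp2 transcript did not (0.0567), and no other transcript of the 21 changed its call.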

Other observations

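Some listed transcripts of acrosome biogenesis genes were at 0 in a whole genotype or went against the rest of their list; they were singled out after their values were seen. The listed transcript of Pick1, a trafficking adaptor of proacrosomal vesicles, stood at 90.5 and 63.2 normalized counts in the WT, against 0 in both cKO libraries. Against a floor of 3 counts over the cKO group it was at least 63.8-fold lower (edgeR adjusted p = 0.0202). The listed transcript of Rab6a, a Golgi GTPase, was at 0 in both WT libraries and at 8.08 and 52.0 in the cKO, at least 16.7-fold higher over a floor of 3 counts in the WT group. The bound is 4.5-fold from cKO replicate 1 alone and 29.0-fold from cKO replicate 2 alone. It lay below the count filter with the authors' size factors, but entered the test and passed under TMM and RLE scaling. It also entered the test without cKO replicate 1, which leaves 1 cKO sample. Gba2, a glucosylceramidase, stood at 61.2 and 51.5 in the WT, against 116.3 and 129.6 in the cKO (1.12 ± 0.38, adjusted p = 0.174) and did not pass. These were each the only transcript of the gene listed, and the genes' other transcripts were not analysed here.

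Several further biogenesis genes changed by about as much as Dpy19l2, near the condition for entry. Spata16, needed for acrosome formation, fell from 4048 and 3216 to 1635 and 1366 normalized counts (-1.28, adjusted p = 0.0423), and Tbc1d20 from 4183 and 4130 to 1823 and 2064 (-1.10, adjusted p = 0.0443). Golga3, a golgin, fell from 5670 and 5192 to 2457 and 2690 (-1.08, adjusted p = 0.0455), and Spink2, an inhibitor of acrosin-like proteases, from 3332 and 3324 to 1521 and 1201 (-1.29, adjusted p = 0.0372). Their median change was not compared with that of the other genes by a test.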
